A study of Homo sapiens with 15 samples.

Results

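The genes described here serve the presentation of peptides by class I molecules of the major histocompatibility complex (MHC). They are 9 listed symbols: the heavy chain genes HLA-B, HLA-C, HLA-E and HLA-F, the light chain gene B2M, the peptide transporter genes TAP1 and TAP2, the tapasin gene TAPBP, and HCP5, a long non-coding RNA of the class I region. All 9 are rows of the total RNA table, which held 56475 symbols, and the 8 protein-coding ones are rows of the footprint table, which held 20248. All 9 passed the count filter in total RNA and all 8 in footprints.

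The cells were MCF-10A, a non-tumorigenic human mammary epithelial line, given 20 nM of siRNA against eIF3e or of control siRNA for 72 h. eIF3e is a subunit of eIF3, a complex that brings the small ribosomal subunit to mRNAs. Total RNA and ribosome footprints, the mRNA stretches that ribosomes shield from nuclease, were each sequenced from 3 libraries per siRNA. In addition there was 1 footprint library each from whole lysate, from eIF3B-bound and from eIF3E-bound ribosomes, for which the labels do not say which siRNA, if any, the cells had received. All groups are the same cell line, and the labels do not give the siRNA sequences or say whether replicates are separate cultures. P-values therefore measure only the spread between these libraries, which may be technical.

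Class I molecules display fragments of a cell's own proteins to T cells and natural killer cells. A heavy chain pairs with beta-2 microglobulin in the endoplasmic reticulum, tapasin holds the pair beside the TAP transporter, and TAP brings in peptides that the proteasome has cut in the cytosol. HLA-B and HLA-C are classical, highly variable heavy chains, whereas HLA-E and HLA-F vary little. Epithelial cells express these genes at rest, and interferons raise them through IRF and NF-kappaB factors and the class I regulator NLRC5.

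Of the members, 8 lie in the MHC on chromosome 6 (RefSeq annotation of GRCh38.p14). HLA-F spans 29723434 to 29738532, HLA-E 30489509 to 30494194, HLA-C 31268749 to 31272092, HLA-B 31353875 to 31357179, and HCP5 31463180 to 31465809. TAP2 spans 32821831 to 32838739, TAP1 32845209 to 32853704 and TAPBP 33299694 to 33314078. B2M lies on chromosome 15, at 44711517 to 44718145. HCP5 is annotated as a long non-coding RNA and the others as protein-coding.

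The table of RefSeq promoters, windows of the GRCh38.p14 reference around each gene's start, held 8 of the 9 members (HLA-E had no entry). Stretches of these 8 promoters are shown because they differ in the motifs through which interferon and NF-kappaB factors act. Whether the motifs bear on the changes after eIF3e siRNA, described further on, was not tested. The capitals mark matches, on either strand, to the IRF core AANNGAAA, the tandem IRF motif (GAAA, NN, GAAA in a row, which always holds an IRF core), the kappaB motif (GGGNN followed by TTNCC), the CRE core TGACG and the CCAAT box CCAAT. The stretches run 5′ to 3′ on the gene's strand and lie at HLA-B chr6:31357221-31357366 (minus strand), HLA-C chr6:31272134-31272294 (minus strand), HLA-F chr6:29723268-29723391 (plus strand), HCP5 chr6:31462995-31463142 (plus strand), B2M chr15:44711363-44711482 (plus strand), TAP1 chr6:32853757-32853954 (minus strand), TAP2 chr6:32838760-32838811 (minus strand) and TAPBP chr6:33314073-33314144 (minus strand). They are the reference sequence and not the alleles of these cells.
HLA-B: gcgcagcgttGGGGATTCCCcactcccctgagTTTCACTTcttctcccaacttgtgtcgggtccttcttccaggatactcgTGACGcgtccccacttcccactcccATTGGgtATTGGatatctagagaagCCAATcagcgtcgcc
HLA-C: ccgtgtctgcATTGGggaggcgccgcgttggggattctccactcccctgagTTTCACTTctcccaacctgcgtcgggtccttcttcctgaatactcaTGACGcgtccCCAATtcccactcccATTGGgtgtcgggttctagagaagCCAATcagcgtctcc
HLA-F: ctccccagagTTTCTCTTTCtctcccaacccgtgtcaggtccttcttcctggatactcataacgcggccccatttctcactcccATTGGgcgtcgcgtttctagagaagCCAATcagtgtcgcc
HCP5: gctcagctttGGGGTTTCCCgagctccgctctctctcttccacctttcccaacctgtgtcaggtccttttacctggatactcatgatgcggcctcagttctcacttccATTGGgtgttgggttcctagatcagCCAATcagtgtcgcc
B2M: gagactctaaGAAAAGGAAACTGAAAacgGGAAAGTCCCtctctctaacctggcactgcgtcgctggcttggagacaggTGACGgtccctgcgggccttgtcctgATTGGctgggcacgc
TAP1: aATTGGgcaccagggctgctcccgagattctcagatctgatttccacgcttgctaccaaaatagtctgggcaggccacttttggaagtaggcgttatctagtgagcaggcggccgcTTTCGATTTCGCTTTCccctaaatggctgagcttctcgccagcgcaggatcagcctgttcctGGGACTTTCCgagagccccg
TAP2: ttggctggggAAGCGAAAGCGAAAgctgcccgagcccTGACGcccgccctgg
TAPBP: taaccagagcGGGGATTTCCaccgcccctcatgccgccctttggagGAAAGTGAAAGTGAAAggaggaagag

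An IRF core was found in 7 of the 8 member windows, against 22.8% of all 35116 RefSeq windows of the same length. A tandem IRF motif was in 5 of 8 (3.57% of all), a kappaB motif in 5 of 8 (5.68%), a CRE core in 4 of 8 (24.6%) and a CCAAT box in 6 of 8 (34.6%). HLA-B and HLA-C were 88.5% identical over their windows, yet HLA-B held a kappaB match and HLA-C did not. The window of HCP5 resembled that of HLA-B (76.1% identity), and held a kappaB match and CCAAT boxes in both orientations as HLA-B did, but no IRF core. TAP2 had a tandem IRF motif close to its start and no CCAAT box, and TAPBP had overlapping tandem IRF motifs just before its start and a kappaB match. TAPBP, which was not called in either assay, thus held tandem IRF and kappaB matches. HCP5, which changed most in total RNA, held no IRF core. The motifs were chosen with these sequences in view, and a match is not a binding site.

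The total RNA libraries held 4263767 to 5646270 counts. Those of siRNA footprints held 1889543 to 3447360, and the single ones 1224606 to 1630872. EIF3E itself checked the labels: in total RNA it was at 188 to 219 CPM (counts scaled to a library of 1000000, with TMM factors) in control and 20.6 to 25.9 CPM after eIF3e siRNA. All 13 mammary epithelial markers, among them KRT5 and EPCAM, had counts in all 12 siRNA libraries. Of 25 leukocyte markers 17 to 19 had 0 counts in each total RNA library, CD3E and MS4A1 among them, and PTPRC had at most 1 count. The summed leukocyte markers were at 66.5 to 93.8 CPM in control and 104 to 114 CPM after eIF3e siRNA in total RNA. They were at 317 to 363 and 536 to 650 CPM in footprints, mostly from CD14 and CD68. Their part in the results was not tested. In bulk RNA a change in the mix of cells and a change per cell cannot be told apart. Changes are log2 fold changes of eIF3e siRNA over control ± SE, n = 3 per group.

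In total RNA 8 of the 9 members rose after eIF3e siRNA and 0 fell, by edgeR's quasi-likelihood test p-values being adjusted by Benjamini-Hochberg across the whole table (threshold 0.05). Of the 11719 genes tested, 18.8% rose. Higher by at least 2-fold with a call were HCP5, HLA-B, HLA-C, HLA-F and TAP2, as were 5.61% of all genes. The median change of the members was 1.13, against 0.02 for all genes tested. HCP5 changed most, the heavy chains HLA-B, HLA-F and HLA-C followed, and TAPBP was the only member not called.

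HLA-B, a heavy chain recognised by cytotoxic T cells, had total RNA levels of 27.3, 22.1 and 26.1 CPM in control and 89.3, 79.6 and 70.1 CPM after eIF3e siRNA. It rose by 1.67 ± 0.13 (edgeR adjusted p = 9.9e-08), with no overlap between groups, as in 25.4% of all genes towards higher values. HLA-C, also a ligand of natural killer cell receptors, was at 553, 475 and 456 CPM in control and 1227, 1272 and 994 CPM after eIF3e siRNA. Its lowest eIF3e siRNA library lay well above its highest control library, and it rose by 1.24 ± 0.12 (edgeR adjusted p = 9.5e-07).

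HLA-F, a non-classical heavy chain, was at 67.7, 54.6 and 46.8 CPM in control and 158, 152 and 126 CPM after eIF3e siRNA. It rose by 1.37 ± 0.14 (edgeR adjusted p = 2.5e-06), again with the groups apart. HLA-E, which presents leader peptides of other class I chains to natural killer cells, was at 835, 754 and 612 CPM in control and 1035, 1027 and 910 CPM after eIF3e siRNA. The groups did not overlap, but the gap between the highest control and the lowest eIF3e siRNA library was small. HLA-E rose by 0.43 ± 0.12 (edgeR adjusted p = 0.0073), the smallest change among the called members, and without eIF3e siRNA library 1 its edgeR adjusted p was 0.0496.

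B2M, the light chain common to all class I molecules, was at 2933, 2483 and 2150 CPM in control and 5031, 4614 and 4527 CPM after eIF3e siRNA. It rose by 0.91 ± 0.11 (edgeR adjusted p = 1.5e-05), a smaller change than that of HLA-B, HLA-C or HLA-F and a larger one than that of HLA-E.

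TAP1 and TAP2 form the heterodimer that pumps peptides into the endoplasmic reticulum. TAP1 was at 478, 383 and 328 CPM in control and 729, 696 and 645 CPM after eIF3e siRNA, a rise of 0.80 ± 0.12 (edgeR adjusted p = 0.00014). TAP2 was at 53.6, 51.3 and 56.0 CPM in control and 116, 110 and 127 CPM after eIF3e siRNA, a rise of 1.13 ± 0.11 (edgeR adjusted p = 9.2e-07). For each subunit the groups were apart, and the TAP2 control libraries lay close together. TAPBP, or tapasin, was at 497, 417 and 461 CPM in control and 519, 525 and 493 CPM after eIF3e siRNA. Its groups overlapped, and its change of 0.16 ± 0.10 (95% interval −0.05 to 0.37) was not called (edgeR adjusted p = 0.22).

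HCP5, which lies between the class I-like genes MICA and MICB, had 25, 37 and 20 counts in the control libraries and 170, 140 and 119 after eIF3e siRNA. These are 5.68, 6.54 and 4.59 CPM against 37.3, 31.2 and 24.1 CPM, with the groups far apart. It rose by 2.44 ± 0.20 (edgeR adjusted p = 2.7e-07), a change larger than that of 99.4% of the genes tested.

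**Figure D1:**
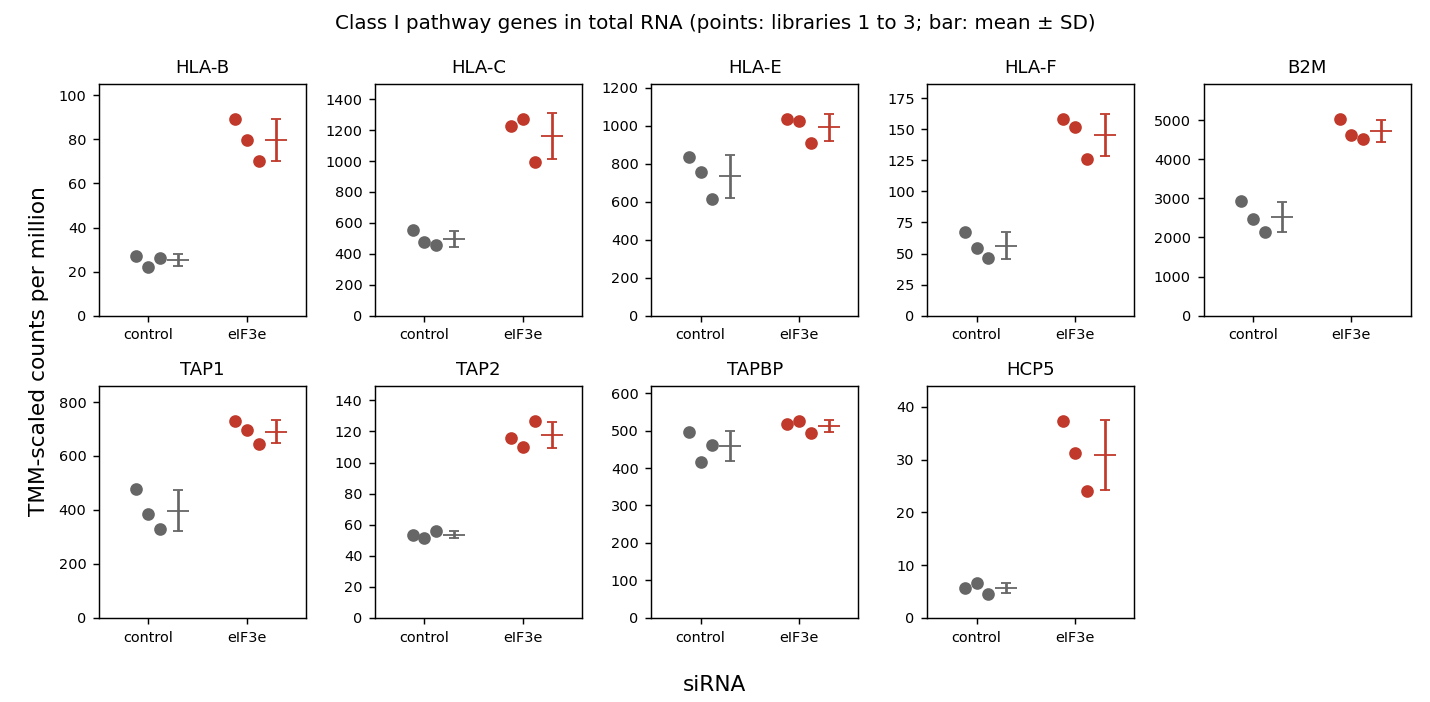
Total RNA levels of the 9 members by library, in TMM-scaled CPM, with control siRNA in grey and eIF3e siRNA in red; points are libraries 1 to 3 and bars the mean ± SD. All red points lie above all grey points except for TAPBP, as they would for 25.4% of all genes tested.

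In footprints the heavy chain HLA-B changed most, with TAP2 and HLA-C after it. Of the 8 coding members 6 rose and 0 fell (edgeR, same test), where 10.0% of the 9228 genes tested rose and 8.46% fell. HLA-E and TAPBP were not called. The median change of the members was 1.15, against −0.01 for all genes tested. At least 2-fold higher with a call were HLA-B, HLA-C, HLA-F, TAP1 and TAP2, 4.24% of all genes being so.

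HLA-B footprints were at 124, 109 and 101 CPM in control and 486, 390 and 365 CPM after eIF3e siRNA. They rose by 1.89 ± 0.14 (edgeR adjusted p = 2.9e-11), more than those of 99.2% of the genes tested. HLA-C footprints were at 1097, 990 and 900 CPM in control and 2992, 2650 and 2710 CPM after eIF3e siRNA. They rose by 1.48 ± 0.12 (edgeR adjusted p = 6.2e-11), and both heavy chains had their groups far apart. In footprints 17.1% of all genes had groups that did not overlap towards higher values. HLA-F footprints were at 176, 193 and 135 CPM in control and at 402, 408 and 417 CPM after eIF3e siRNA, libraries that lay close together. They rose by 1.28 ± 0.14 (edgeR adjusted p = 2.8e-08).

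HLA-E footprints were at 1386, 1227 and 850 CPM in control and 1442, 1381 and 1451 CPM after eIF3e siRNA. The control libraries were widely spread, and the highest of them lay above the lowest eIF3e siRNA library. The change of 0.30 ± 0.13 (95% interval 0.03 to 0.57) was not called (edgeR adjusted p = 0.12). Without control library 1, the highest, it was 0.45 (edgeR adjusted p = 0.0093), and without control library 3, the lowest, 0.11 (edgeR adjusted p = 0.55).

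B2M footprints were at 5360, 4464 and 4385 CPM in control and 8553, 8991 and 8385 CPM after eIF3e siRNA, a rise of 0.87 ± 0.11 (edgeR adjusted p = 8.2e-07). TAP1 footprints were at 412, 420 and 361 CPM in control and 836, 792 and 775 CPM after eIF3e siRNA, a rise of 1.01 ± 0.12 (edgeR adjusted p = 1.5e-07). The groups were apart for each of these genes. TAP2 had 15, 22 and 21 footprint counts in control and 73, 60 and 101 after eIF3e siRNA, so its rise of 1.51 ± 0.39 (edgeR adjusted p = 0.0050) rests on few counts and has the widest error of the members. TAPBP footprints were at 945, 791 and 709 CPM in control and 790, 765 and 868 CPM after eIF3e siRNA, within the control range, with a change of −0.01 ± 0.12 (95% interval −0.26 to 0.23, edgeR adjusted p = 0.96).

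**Figure D2:**
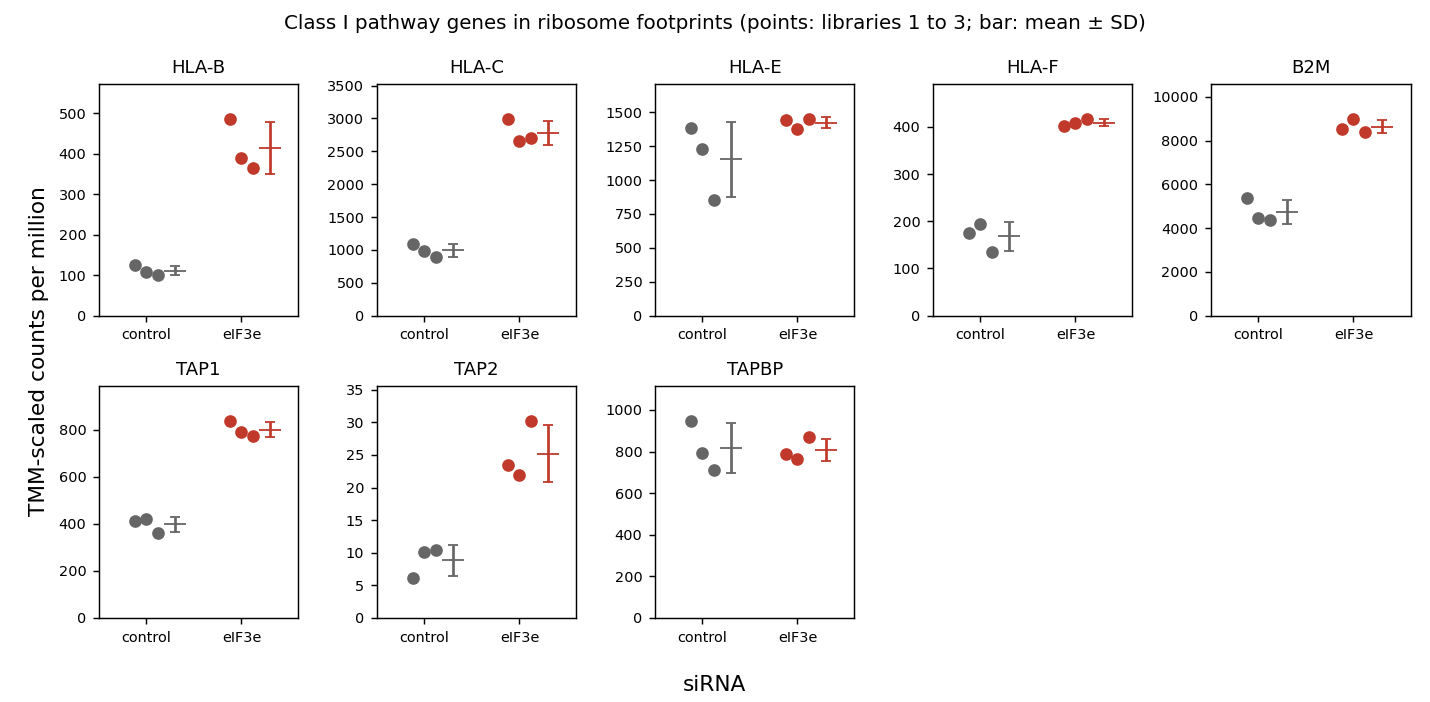
Footprint levels of the 8 coding members by library, in TMM-scaled CPM, drawn as for total RNA. Grey and red points overlap for HLA-E and TAPBP and are apart for the other 6 genes, as towards higher values for 17.1% of all genes.

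HLA-B, HLA-C, HLA-E and HLA-F are near-identical in parts, and the way reads shared among them were counted is not given in the sources used here, so the split between them is uncertain. Summed as 1 row, they were at 1483, 1305 and 1140 CPM in control and 2510, 2531 and 2099 CPM after eIF3e siRNA in total RNA, a log2 difference of 0.87 between the group means. In footprints the sum was at 2783, 2519 and 1986 CPM in control and 5322, 4828 and 4942 CPM after eIF3e siRNA, a log2 difference of 1.06. HLA-C made up 36.4 to 39.95% of this sum in control total RNA, against 47.3 to 50.3% after eIF3e siRNA. In footprints its share was 39.3 to 45.3% and 54.8 to 56.2%.

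Footprints per mRNA, the interaction of assay and siRNA in a fit over the 12 siRNA libraries, were called for 0 of the 8 coding members by edgeR, with 0 at an unadjusted p under 0.05 and 0 by DESeq2. Of the 9055 genes tested 0.309% were called in either direction, so a count of 0 among 8 is near the background. The changes ran from −0.17 ± 0.16 for TAPBP to 0.39 ± 0.28 for TAP2, with a median of 0.09 against 0.01 for all genes. For HLA-B the change was 0.22 ± 0.20 (95% interval −0.19 to 0.64, edgeR adjusted p = 0.71), and for HLA-C 0.25 ± 0.16 (−0.08 to 0.58, edgeR adjusted p = 0.57). For B2M it was −0.04 ± 0.16 (−0.37 to 0.29, edgeR adjusted p = 0.96) and for TAP1 0.21 ± 0.17 (−0.13 to 0.56, edgeR adjusted p = 0.66). For HLA-E it was −0.13 ± 0.20 and for HLA-F −0.09 ± 0.20. These intervals leave room for changes of the sizes at their ends.

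**Figure D3:**
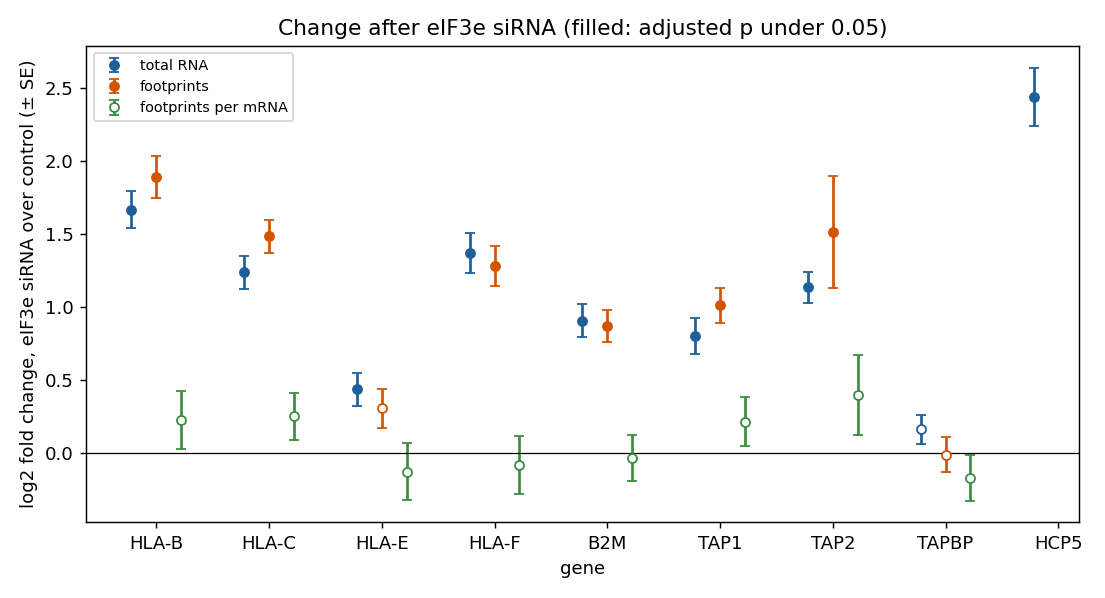
Log2 fold changes ± SE after eIF3e siRNA for each member in total RNA (blue), footprints (orange) and footprints per mRNA (green), filled where the adjusted p was under 0.05. HCP5 has no footprint row, HLA-E is filled in total RNA alone, TAPBP is open throughout, and all green points are open.

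In control cells the members differed widely in footprints per mRNA, the footprint CPM divided by the total RNA CPM of the library with the same number. HLA-B had ratios of 4.50, 4.83 and 3.82, higher on average than 98.7% of 9055 genes, and HLA-F 2.58, 3.52 and 2.87 (93.6%). HLA-C had 1.98, 2.08 and 1.97, B2M 1.83, 1.80 and 2.04, TAPBP 1.90, 1.90 and 1.54, and HLA-E 1.66, 1.63 and 1.39, neighbours whose ranges touch or lie close. TAP1 had 0.861, 1.096 and 1.1. After eIF3e siRNA HLA-B was at 5.42, 4.87 and 5.18 and TAP1 at 1.148, 1.137 and 1.2, the interaction not being called for either. All these ratios divide libraries of the same number, which were not taken as pairs, so their spread depends on that matching. TAP2, the partner of TAP1 in the transporter, had 0.123, 0.204 and 0.193, higher than only 1.27% of genes, and its 3 ratios lay below those of every other member. After eIF3e siRNA TAP2 was at 0.205, 0.203 and 0.241, still the lowest member. Sequence outside the coding region adds to the total RNA count and hardly to footprints. Its part in these ratios was not tested. The sources used here give neither the counted feature nor how reads shared among the heavy chains were counted in each assay.

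**Figure D4:**
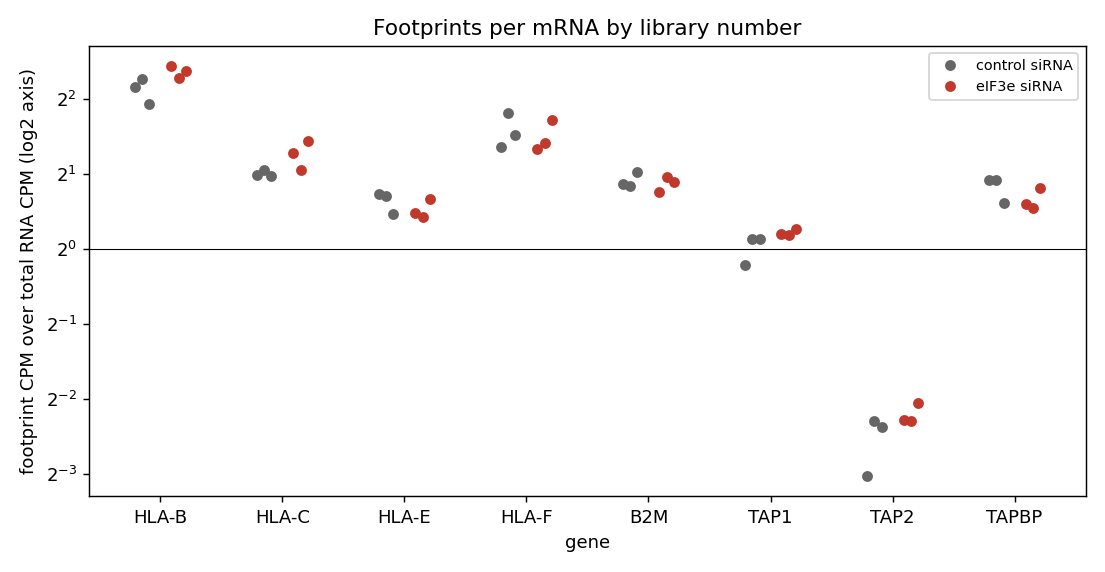
Footprint CPM over total RNA CPM for the 8 coding members, with library numbers 1 to 3 from left to right, on a log2 axis, control siRNA in grey and eIF3e siRNA in red. HLA-B lies highest and TAP2 lowest under each siRNA.

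The single libraries address which footprints are enriched on ribosomes that carry eIF3. With 1 library each there is no test, and intervals are exact 95% intervals of counting error only. HLA-C had 524, 1162 and 1079 counts in the lysate, eIF3B-bound and eIF3E-bound libraries, which makes 428, 811 and 662 CPM of the library total. Scaled by TMM, it was 1.89 times (interval 1.70 to 2.10) the lysate level on eIF3B-bound ribosomes and 1.53 times (1.38 to 1.71) on eIF3E-bound ones. Of the 5817 genes with at least 50 counts in 1 library, 20.5% were at least 1.5-fold higher and 22.7% at least 1.5-fold lower in the eIF3B-bound library than in lysate. In the eIF3E-bound library 14.3% were at least 1.5-fold higher and 17.0% at least 1.5-fold lower.

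HLA-E and TAPBP were higher in each selective library than in lysate. HLA-E had 260, 526 and 522 counts and ratios of 1.73 (1.48 to 2.01) and 1.497 (1.29 to 1.74). TAPBP had 603, 1105 and 1289 counts and ratios of 1.56 (1.41 to 1.73) and 1.59 (1.45 to 1.76). TAP1 had 244, 402 and 398 counts, with smaller ratios of 1.41 (1.20 to 1.65) and 1.22 (1.03 to 1.43).

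B2M was slightly below the lysate level in each selective library. It had 2169, 2360 and 2422 counts, with ratios to lysate of 0.928 (0.875 to 0.984) for eIF3B and 0.833 (0.785 to 0.883) for eIF3E. These ratios were higher than those of 43.9% and 32.5% of the 5817 genes. HLA-B, with 46, 60 and 54 counts, had ratios of 1.11 (0.745 to 1.67) and 0.875 (0.580 to 1.33), intervals that include 1.

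TAP2 and HLA-F had the eIF3E-bound over eIF3B-bound ratios farthest from 1. TAP2 had 40, 89 and 64 counts, and was 1.90 times (1.29 to 2.83) the lysate level for eIF3B and 1.19 times (0.791 to 1.82) for eIF3E. Its eIF3E-bound over eIF3B-bound ratio was 0.629 (0.449 to 0.877), where 17.1% of the 5817 genes were at least 1.5-fold lower. This ratio was also below 1 for HLA-C (0.812, 0.747 to 0.883), HLA-E (0.868, 0.767 to 0.982), B2M (0.898, 0.848 to 0.95) and TAP1 (0.866, 0.752 to 0.997). For HLA-B (0.787, 0.535 to 1.16) and TAPBP (1.02, 0.941 to 1.11) the interval included 1. HLA-F had 27, 24 and 76 counts. Its eIF3E-bound level was 2.10 times (1.34 to 3.39) that of lysate and 2.77 times (1.73 to 4.58) that of the eIF3B-bound library, while eIF3B over lysate was 0.758 (0.419 to 1.36). Of the 5817 genes 18.0% were at least 1.5-fold higher in the eIF3E-bound than in the eIF3B-bound library, and without a second library the HLA-F value has no replicate check.

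**Figure D5:**
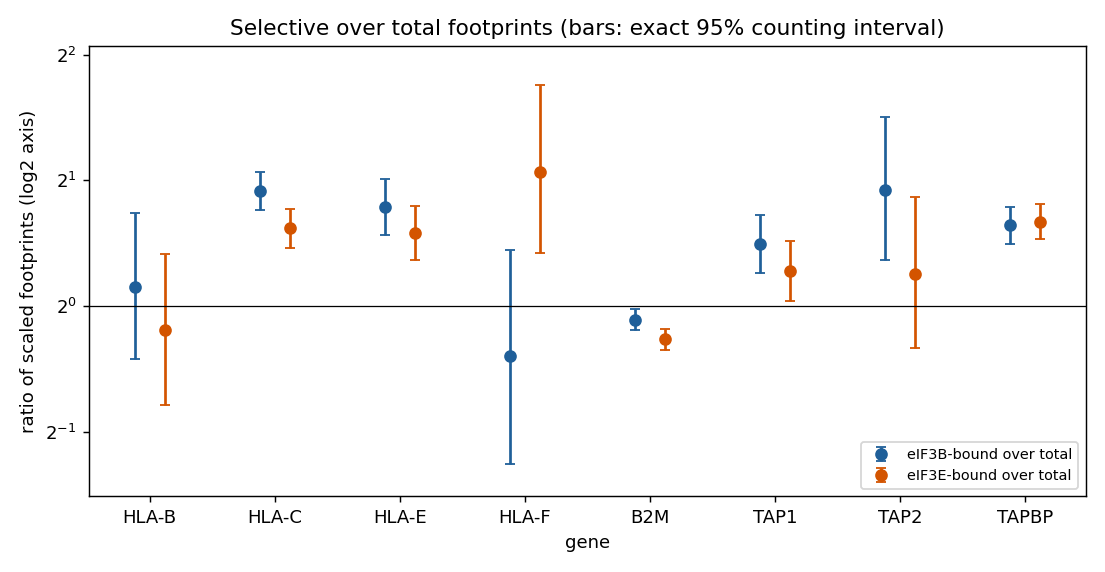
Ratio of eIF3B-bound (blue) and eIF3E-bound (orange) to lysate footprints for the 8 coding members, TMM-scaled, on a log2 axis, with exact 95% counting intervals and 1 library per kind. The intervals of HLA-C, HLA-E, TAPBP and TAP1 lie above 1 and those of B2M below 1 in each library. The interval of HLA-F lies above 1 for eIF3E alone and that of TAP2 for eIF3B alone, and those of HLA-B include 1.

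The lysate and the control siRNA footprint libraries also differed in member levels per library total, although the lysate library has no replicate. HLA-E was at 212 CPM in lysate against 909 to 1314 CPM in control siRNA, and HLA-F at 22.05 against 144.5 to 198.3 CPM. HLA-B (37.6 against 108.5 to 117.9), HLA-C (428 against 963 to 1040) and B2M (1771 against 4575 to 5082) were also lower in lysate. So were TAP1 (199 against 386 to 430) and TAPBP (492 against 759 to 896.5). TAP2 alone was higher in lysate, at 32.7 against 5.82 to 11.1 CPM. The share of all genes that differed in this way was not computed.

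The other genes of the pathway were described by lists of the pathway's parts, read against the shares of all genes called. Of the 8 proteasome genes tested (immunoproteasome subunits and activators) 3 rose and 2 fell in total RNA (18.8% and 18.7% of all genes). Their median change was 0.21 in total RNA and 0.09 in footprints. PSMB8, an immunoproteasome subunit encoded between TAP1 and TAP2, rose by 0.70 ± 0.13 (edgeR adjusted p = 0.00043). PSMB9, another such subunit, which starts beside TAP1 on the opposite strand, rose by 1.00 ± 0.28, and the activator subunit PSME3 by 0.52 ± 0.14. PSME1, of another activator, fell by 0.39 (log2). The calls of PSMB9 (0.76, edgeR adjusted p = 0.071) and PSME1 (−0.35, edgeR adjusted p = 0.066) were lost without eIF3e siRNA library 1, and that of PSME3 without eIF3e siRNA library 3 (0.36, edgeR adjusted p = 0.056). PSME1 was also lost with total-count scaling (−0.22, edgeR adjusted p = 0.17), and PSME3 with the share of counts taken by 7SL RNA as a term (0.30, edgeR adjusted p = 0.15). In footprints 2 of 8 rose and 1 fell (10.0% and 8.46% of all genes). PSME2, the partner of PSME1, was at 0.83 ± 0.19, PSMB9 at 1.11 ± 0.32 and PSMB10 at −0.72 ± 0.20. There the PSMB9 call was lost without control library 1 (1.03, edgeR adjusted p = 0.051) or 2 (0.89, edgeR adjusted p = 0.10), and the PSMB10 call without eIF3e siRNA library 3 (−0.61, edgeR adjusted p = 0.078).

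Among 13 genes of peptide trimming and loading 5 rose and 0 fell in total RNA, where 18.8% of all genes rose and 18.7% fell. Of the 13 genes, 7 were at an unadjusted p under 0.05 and 3 were called by DESeq2. Their median change was 0.25 in total RNA and 0.19 in footprints. Calreticulin, CALR, which holds the heavy chain during loading, rose by 0.69 ± 0.11 (edgeR adjusted p = 0.00012). TAPBPL, the tapasin-related peptide editor, rose by 0.93 ± 0.18, with 7.80 ± 0.53 CPM in control and 14.9 ± 0.71 CPM after eIF3e siRNA (SD, n = 3), whereas TAPBP did not pass. PDIA3, the disulfide isomerase ERp57 of the loading complex, rose by 0.41 ± 0.11, a call lost without eIF3e siRNA library 2 (0.34, edgeR adjusted p = 0.054). THOP1, a cytosolic peptidase that degrades peptides, rose by 0.38 ± 0.14, and its call was lost without any 1 of the 6 libraries (edgeR adjusted p up to 0.16). HSPA5 rose by 0.29 ± 0.11, a call lost without any 1 library other than control library 1 (edgeR adjusted p up to 0.17). In footprints 2 of 13 rose and 0 fell, against 10.0% and 8.46% of all genes (5 at an unadjusted p under 0.05, 2 by DESeq2). These were PDIA3, by 0.96 ± 0.11 (edgeR adjusted p = 1.8e-07), and CALR, by 0.47 ± 0.11. The CALR call was lost without control library 2 (0.43, edgeR adjusted p = 0.0504). Footprints per mRNA of PDIA3 were at 0.55 ± 0.15, not called by edgeR (adjusted p = 0.13) but called by DESeq2 (adjusted p = 0.019) and by edgeR with the library pair as a block (0.55, adjusted p = 0.011). The trimming peptidase ERAP1 was at −0.01 ± 0.12 in total RNA and 0.37 ± 0.16 in footprints, neither passing. ERAP1 and this last value of PDIA3 were chosen after their values were seen.

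Of 16 tested class I-like genes and class I pseudogenes 9 rose and 3 fell in total RNA (18.8% and 18.7% of all genes), with a median of 0.87 there and 0.62 in footprints. The pseudogenes HLA-H (1.65 ± 0.20), HLA-J (1.75 ± 0.26) and HLA-K (2.76 ± 0.39) rose, and so did PROCR, the endothelial protein C receptor, whose fold is class I-like (1.05 ± 0.10). HLA-K rests on few counts, 2, 9 and 4 in control and 39, 27 and 34 after eIF3e siRNA. HLA-J had 16, 15 and 10 counts in control and 46, 47 and 42 after eIF3e siRNA. The pseudogenes can share reads with the heavy chains, so their rise is not separate from that of HLA-B and HLA-C. In footprints 4 of 12 rose and 2 fell (10.0% and 8.46% of all genes). PROCR rose by 1.03 ± 0.14, the stress ligand MICA by 1.00 ± 0.22 and HLA-G by 1.86 ± 0.47, and RAET1G, another stress ligand, fell by 1.25 (log2). The HLA-G call was lost without eIF3e siRNA library 3 (1.56, edgeR adjusted p = 0.066).

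Among 19 tested transcription factors of class I genes 6 rose and 2 fell in total RNA (18.8% and 18.7% of all genes), with a median of 0.17 there and −0.12 in footprints. NLRC5, the activator of class I promoters, rose by 1.03 ± 0.15 (edgeR adjusted p = 6.1e-05) and IRF7 by 1.24 ± 0.16 (edgeR adjusted p = 1.9e-05). PRDM1, a repressor that can bind IRF motifs, fell by 1.31 (log2, edgeR adjusted p = 1.7e-05). In footprints 1 of 18 rose and 1 fell (10.0% and 8.46% of all genes), namely RELB, an NF-kappaB subunit (1.65 ± 0.58), and PRDM1 (−1.41 ± 0.18). The RELB call was lost without control library 1 or 3 or without eIF3e siRNA library 1 or 3 (edgeR adjusted p up to 0.27). NLRC5 footprints numbered 3, 15 and 3 in control and 20, 30 and 19 after eIF3e siRNA, and were not called (1.26 ± 0.76, edgeR adjusted p = 0.28). IRF7 footprints were at 0.08 ± 0.33, and its footprints per mRNA at −1.15 ± 0.33 (edgeR adjusted p = 0.15, DESeq2 adjusted p = 0.038).

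Of 12 tested interferon ligands, receptors and their signalling genes 2 rose and 4 fell in total RNA, where 18.8% of all genes rose and 18.7% fell, and the median was 0.03 in each assay. USP18, an interferon-induced inhibitor of the type I receptor, rose by 1.86 ± 0.29 and the interferon gamma receptor chain IFNGR1 by 0.62 ± 0.10. The kinase JAK2 fell by 0.89 and the receptor chain IL10RB by 0.52 (log2), the IL10RB call being lost with total-count scaling (−0.35, edgeR adjusted p = 0.051). In footprints 3 of 10 rose and 0 fell (10.0% and 8.46% of all genes). Those that rose were USP18, from 3, 0 and 5 counts to 82, 27 and 38, IFNGR1 (0.67 ± 0.12) and IFNAR1 (0.89 ± 0.30). The IFNAR1 call was lost without control library 1 or 3 or any 1 eIF3e siRNA library (edgeR adjusted p up to 0.17). IFNB1 was at 0 counts in total RNA of all 3 control libraries and at 1, 2 and 2 with eIF3e siRNA, which is at or under the floor of 3 counts per library, and IFNG had 0 in all 6.

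Of 12 tested genes of class I turnover and surface traffic 3 rose and 2 fell in total RNA (18.8% and 18.7% of all genes). Their median was 0.10 there and 0.20 in footprints. UBE2J1, a ubiquitin-conjugating enzyme of the endoplasmic reticulum that acts on misfolded class I chains, fell by 1.17 (log2, edgeR adjusted p = 1.4e-06), and the sorting adaptor PACS1 fell by 0.91. The ligase TMEM129 rose by 0.58 ± 0.11 and UBE2G2, a ubiquitin-conjugating enzyme, by 0.57 ± 0.15, a call lost with the share of counts taken by 7SL RNA as a term (0.43, edgeR adjusted p = 0.077). In footprints edgeR called 0 of 12 (1 at an unadjusted p under 0.05, 0 by DESeq2), where 18.5% of all genes were called. The most abundant were the translocon gene SEC61A1 at 0.24 ± 0.12 and SURF4 at 0.18 ± 0.12.

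Class II presentation was nearly silent in these cells. HLA-DRA reached at most 2 counts and CIITA at most 6 in any total RNA library, HLA-DRA had footprints in 1 of the 6 siRNA libraries (10 counts), and 2 of the 16 listed genes were tested in total RNA. Of these CTSL, the lysosomal protease cathepsin L, rose by 0.62 ± 0.10, and CTSS, or cathepsin S, fell by 0.46 (log2). In footprints 2 of 3 rose and 1 fell (10.0% and 8.46% of all genes). IFI30, a lysosomal thiol reductase induced by interferon, rose by 1.01 ± 0.14 and CTSL by 0.73 ± 0.12, and CTSS was at −0.48 ± 0.16. The CTSS calls were lost without control library 1 or eIF3e siRNA library 3 in total RNA (edgeR adjusted p up to 0.071) or with total-count scaling there (−0.29, edgeR adjusted p = 0.13), and in footprints without any 1 library other than control library 3 or eIF3e siRNA library 2 (edgeR adjusted p up to 0.17).

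Genes that neighbour the class I genes on chromosome 6 changed in both directions. Of 28 tested 7 rose and 3 fell in total RNA (18.8% and 18.7% of all genes). Of 24 in footprints 3 rose and 2 fell (10.0% and 8.46% of all genes). The medians were 0.18 and 0.05. VARS2, the mitochondrial valyl-tRNA synthetase, rose in total RNA (0.86 ± 0.12) and footprints (1.16 ± 0.23), PRRC2A rose by 0.62 ± 0.12 in total RNA, and FLOT1, or flotillin, fell there by 0.96 (log2). HLA-F-AS1, annotated over part of HLA-F, rose by 1.34 ± 0.27 in total RNA, from 3.02 ± 0.44 to 7.72 ± 1.04 CPM (SD, n = 3). Without a stated strand setting its reads cannot be told from those of HLA-F. In footprints BAG6, a chaperone, fell by 0.73 (log2), IER3 rose by 0.91 ± 0.22, and RNF39 was at −1.998 ± 0.56, a call lost without control library 1 (−1.33, edgeR adjusted p = 0.22) or eIF3e siRNA library 1 (−1.58, edgeR adjusted p = 0.060).

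Of the marker lists, 3 of 5 tested leukocyte genes rose and 1 fell in total RNA (18.8% and 18.7% of all genes). DESeq2 called 1 of these 5. CD14 was at 0.57 ± 0.17, CSF1R at 0.49 ± 0.17, LCP1 at 0.86 ± 0.29 and CORO1A at −0.83 ± 0.29. Each of these 4 calls was lost on leaving out at least 3 of the libraries in turn (edgeR adjusted p up to 0.15). In footprints 2 of 5 rose and 0 fell (10.0% and 8.46% of all genes), namely CD14 (0.94 ± 0.15) and CD68 (0.79 ± 0.15). DCN, of 2 tested fibroblast and endothelial markers, rose by 0.73 ± 0.13 in total RNA and 1.05 ± 0.17 in footprints. Of 13 mammary epithelial markers 1 rose and 4 fell in total RNA (18.8% and 18.7% of all genes), with KRT14 at −1.003 ± 0.16, KRT6A at −0.74 ± 0.12, ITGB4 at −0.43 ± 0.10 and KRT7 at −0.40 ± 0.10, the last a call lost with total-count scaling (−0.24, edgeR adjusted p = 0.10). In footprints 1 rose and 8 fell (10.0% and 8.46% of all genes), with KRT14 at −0.97 ± 0.11, KRT6A at −0.78 ± 0.11, KRT17 at −0.60 ± 0.11 and KRT5 at −0.53 ± 0.11.

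Over the 12 siRNA libraries, centred within each assay, the mean log2 profile of the 8 coding members was most like those of HLA-C (Pearson r = 0.995), ITGA5, an integrin of the fibronectin receptor (0.995), IGFBP7, a secreted growth factor binding protein (0.995), and HLA-F (0.993). The members enter this mean, and the points share the contrast of siRNAs. Among the members HLA-B (0.988), TAP1 (0.990) and B2M (0.984) were close to it, TAP2 (0.921) and HLA-E (0.815) less so, and TAPBP had r = 0.412.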

How the data were processed

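Total RNA and footprints of MCF-10A cells were read from tables of raw counts per gene symbol that the authors deposited. Per the submitters' processing notes, cutadapt 1.18, Bowtie 1.1.2, STAR 2.5 and HTSeq were used with the builds hg38 and GRCh38. The sources used here give no order of steps, annotation, strand setting or counted feature, nor how reads shared among genes were treated. Each column was assigned through its sample's title, which left 0 columns without a sample.

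Low genes were removed by filterByExpr (minimum count 10) and each assay was scaled by its own TMM factors. Tests were the two-sided quasi-likelihood F test of edgeR 4.0.16 in R 4.3.3, fitted robustly, and p-values were Benjamini-Hochberg adjusted across every gene that passed (threshold 0.05). Each assay had its own model of 6 libraries in which siRNA was the single factor. The change in footprints per mRNA was the interaction of assay and siRNA over 12 libraries, on genes passing both filters. Intervals of changes are 95%. Log2 ratios of CPM used a pseudocount of 0.5. A count of 0 allows 3 counts of the library total. Intervals and floors cover counting error only. In the single libraries genes with at least 50 counts in 1 library were used, and intervals were exact (Poisson and Clopper-Pearson).

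The members and lists were chosen with earlier results of these data known, and the motifs after the sequences were seen. The naming rule takes all members, up to 4 called genes per list and comparison with the smallest adjusted p (the 2 most abundant where none was called), and the 5 genes most like the members' mean profile. For footprints per mRNA, where edgeR called no list gene, no names are given by this rule, and the values of IRF7 and PDIA3, which DESeq2 called, were chosen after they were seen. Some genes that the rules name are not reported here. Alternatives were DESeq2 1.42.0 size factors and Wald test, total-count scaling, other filters, the replicate number or library pair as a block, a 7SL term, genes of the footprint table only, summed heavy chains, and leaving out each replicate. The fits were tested on simulated counts with 200 changed genes.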

Additional observations from a re-analysis of the deposited data

How the results depend on the processing

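The calls of the 8 members that rose in total RNA and the 6 that rose in footprints were kept under all alternatives that gave a test, for as many of the members as each alternative held (HCP5 is not among the genes of the footprint table, which leaves 7). The summed heavy chains had no test. Their log2 differences of 0.87 in total RNA and 1.06 in footprints were below the 1.24 and 1.48 of HLA-C alone. TAPBP in total RNA passed with total-count scaling (0.33, edgeR adjusted p = 0.013), a scaling that raised the median of all genes by 0.16 (log2), and HLA-E footprints passed without control library 1. In footprints per mRNA no member was called under any alternative, while that scaling moved the median of all genes by −0.21. The number of genes called there in all was less stable: 28 in the main analysis, 99 with total-count scaling, 46 with a minimum count of 50, 144 with the DESeq2 Wald test, 166 with the library pair as a block, and 0 to 50 on leaving out each library (0 without total RNA control library 2 or eIF3e siRNA library 3). The cause was not tested. Same-numbered libraries did not deviate together in every pair (r = −0.02, 0.19 and 0.30 in total RNA, −0.003, 0.03 and 0.004 in footprints, and 0.13, 0.002 and 0.12 in control and 0.04, 0.04 and 0.04 after eIF3e siRNA between footprints and total RNA), so the numbers were not taken as pairing. With the replicate number as a block 4606 genes were called in total RNA against 4399, 1676 in footprints against 1707 and 34 in footprints per mRNA against 28. TAP2 in footprints and HLA-F in the single libraries are limited by depth.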
